A study of Harpegnathos saltator with 32 samples.

Results

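In the brain of the ant Harpegnathos saltator, 60 genes rose and fell together from individual to individual, and the most abundant of them ranged from 101.4 to 43676 FPKM. The members were chosen by the measured levels themselves: they are the 60 genes whose log2(FPKM + 0.5) had the highest Pearson correlation (r) with that of the gene LOC112588745 over all 32 libraries, LOC112588745 included. FPKM, fragments per kilobase scaled for depth, is the authors' deposited unit. The choice was made among the 9433 of 14001 listed genes with at least 1 FPKM in at least 7 libraries, so every member passed that filter on low values. Because the correlation chose the members, the correlations below are descriptions and carry no test.

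Of the 17 members with a gene symbol, 11 are on a list of genes known from insect cuticle or chitin. That list was drawn up after the members were known, and it holds 25 of the 9433 genes that passed the filter. Cuticle is the extracellular layer that epidermal cells secrete, built of chitin fibres and structural proteins such as apidermins, proteins with the Rebers-Riddiford chitin-binding motif and proteins analogous to peritrophins. Chitin deacetylases and chitinases modify the fibres, and zona pellucida proteins help to anchor the layer to the cells. Cuticle also lines the tracheae, the air tubes that enter insect brains, and forms the lenses of the eyes.

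The series compared workers with gamergates, workers that have become reproductive, after injection of siRNA into the head. The labels call the gamergates duelers. Dicer-substrate siRNA was directed against Kr-h1, the gene of a zinc finger factor induced by juvenile hormone, or against GFP as the control. All ants were taken at day 10 and brains were collected 10 hours after the injection, with 1 brain per library. Of the workers, 8 were controls and 7 had received Kr-h1 siRNA, and of the gamergates, 9 were controls and 8 had received Kr-h1 siRNA. All 4 groups had therefore received an injection and an siRNA, and no uninjected brain is among the libraries analysed here. Libraries came from rounds 2 and 3, and gamergates of round 2 were alone on sequencing run 200508 while all others were on run 200626.

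The median library held 6.67 M reads as recovered from the deposited values, the smallest 4.80 M and the largest 11.9 M. Worker GFP replicates 4 and 5 stood apart in the number of genes detected, 10473 and 10945 against 11137 to 11936 in the other 30 libraries. Without these libraries, 57 of the 60 genes were again among the 60 most correlated with LOC112588745, and the 3 genes to be ranked lay at 3, 6 and 7. Kr-h1 itself (LOC112589664) lay below the filter. It ranged from 0.369 to 2.54 FPKM in worker controls and from 0.297 to 0.840 FPKM in workers given Kr-h1 siRNA. In gamergates it ranged from 0.480 to 7.57 FPKM in controls and from 0.114 to 1.01 FPKM after Kr-h1 siRNA, so the ranges overlapped in both castes. All 11 neuronal markers passed the filter, but so did 8 of 9 muscle and 9 of 10 retina markers. Passing it therefore does not check the brain label.

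LOC112588745, a protein-coding gene with no symbol, ran from 101.4 to 43676 FPKM over the 32 brains, a 431-fold range with a median of 2386 FPKM. In worker controls the lowest, median and highest values were 353, 954 and 22097 FPKM (n = 8). In workers given Kr-h1 siRNA they were 137, 9774 and 34843 FPKM (n = 7). Both groups held brains near their lowest value and brains far above it, and the range of the controls lay inside that of the treated workers. In gamergate controls the values were 101.4, 6579 and 43676 FPKM (n = 9), so the lowest and the highest of all 32 brains were both control gamergates. In gamergates given Kr-h1 siRNA they were 105.7, 1930 and 36700 FPKM (n = 8). LOC112588745 was the most abundant gene by FPKM in 11 libraries and among the 5 most abundant in 18, and its lowest place was rank 228. Its reads ran from 1303 to 552427 per library, so counting error is small beside this spread.

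**Figure D1:**
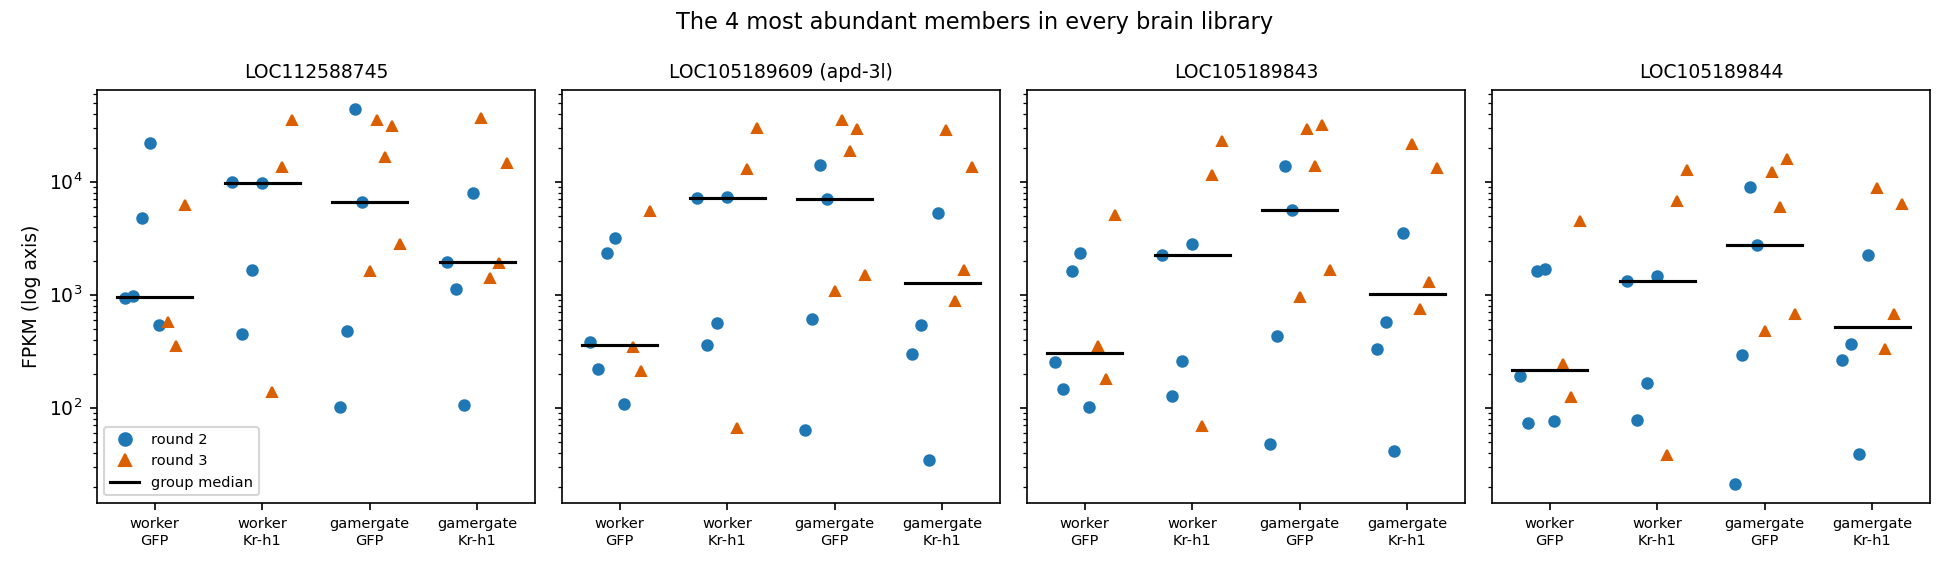
FPKM on a log axis of the 4 most abundant members in each of the 32 brain libraries, by group, with circles for round 2, triangles for round 3 and a black line at each group's median. In every group the brains spread widely, for LOC112588745 from 353 to 22097 FPKM even in the narrowest group, and the ranges of the 4 groups overlap for each gene.

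The other 3 of the 4 most abundant members lay near the top of the list. The apidermin-like gene apd-3l (LOC105189609), named after structural cuticle proteins known from the honeybee, ranked 4 with r = 0.962. LOC105189844 ranked 6 with r = 0.956 and LOC105189843 ranked 8 with r = 0.954, and neither has a symbol. Lowest and highest values were 34.5 and 34816 FPKM for apd-3l, a 1009-fold range. For LOC105189843 they were 41.5 and 31527 FPKM, and for LOC105189844 they were 21.1 and 15900 FPKM. All 3 spread more than LOC112588745 did. On the log2(FPKM + 0.5) scale, the SD within groups was 2.77 for apd-3l, 2.72 for LOC105189844, 2.70 for LOC105189843 and 2.63 for LOC112588745, which were ranks 1 to 4 among the 9433 genes. LOC112588745 is thus not the most variable gene by this measure. Among the 60 members the median SD within groups was 1.44, against 0.242 over all genes tested, and 15 of the 20 most variable genes were members.

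The apd-3l medians were 361 FPKM in worker controls (n = 8) and 7105 FPKM in workers given Kr-h1 siRNA (n = 7). In gamergates they were 6948 FPKM in controls (n = 9) and 1270 FPKM after Kr-h1 siRNA (n = 8). The worker groups ran from 107.5 to 5496 FPKM and from 65.9 to 29946 FPKM, and the gamergate groups from 63.7 to 34816 FPKM and from 34.5 to 28865 FPKM. Each group held low and high brains, and all 4 ranges overlapped. LOC105189843 had medians of 303 FPKM in worker controls and 2240 FPKM in treated workers, and of 5572 FPKM in control and 1014 FPKM in treated gamergates. LOC105189844 had medians of 217, 1322, 2765 and 521 FPKM in the same order. For all 4 lead genes, worker controls had the lowest median of the 4 groups.

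Together the 60 genes held from 0.166% to 40.5% of a library's FPKM sum, with a median of 3.78%. The share was above 30% in 5 libraries, above 10% in 14 and below 5% in 17, and 1 library lay between 5% and 10%. LOC112588745, apd-3l, LOC105189843 and LOC105189844 alone made up as much as 39.0%, while the other 56 members held 1.85% at most. Group medians of the share of all 60 were 1.07% in worker controls and 11.3% in workers given Kr-h1 siRNA. They were 12.6% in gamergate controls and 2.79% in gamergates given Kr-h1 siRNA. By recovered reads, which weight genes by length, the share ran from 0.0963% to 26.8%. The FPKM sum of all other genes ranged from 157435 to 204660, a narrower range than the 158562 to 285623 with the members included.

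**Figure D2:**
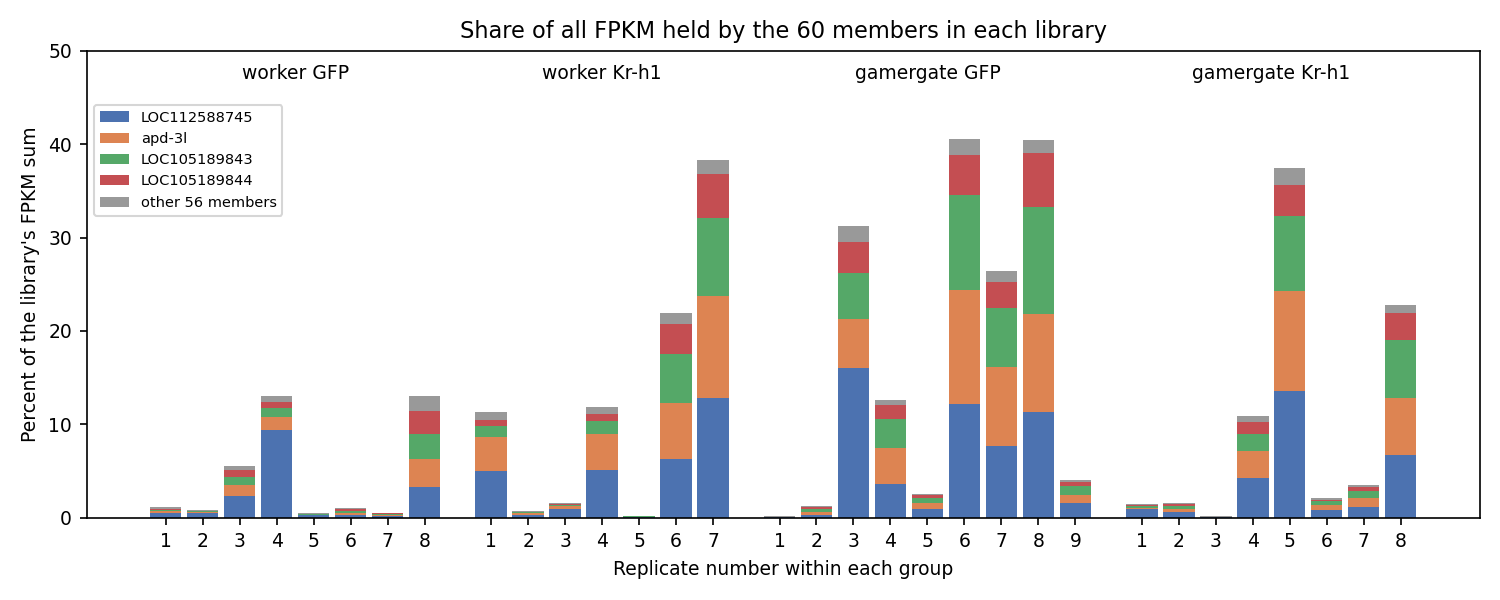
Percent of each library's FPKM sum held by the members, as stacked bars for LOC112588745, apd-3l, LOC105189843, LOC105189844 and the other 56 members, for each replicate of the 4 groups. The bars run from 0.166% to 40.5%, and every group has libraries below 1%.

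Across the 1770 pairs of members, r ran from 0.696 to 0.993 with a median of 0.895. A single principal component carried 88.9% of the members' variance and the next 2.62%. With group and batch means removed, the median pairwise r was 0.902 and the lowest 0.708, so the members varied together within groups and batches too. These points are the 32 libraries, which share groups, rounds, runs and the authors' depth scaling. LOC112588745 had r = -0.18 with the reads outside the members and r = -0.13 with the number of genes detected. In 15 libraries at least 49 members lay above their own median, and in 16 libraries at most 13 did. This follows from choosing genes that correlate and does not mark separate classes of brain. The remaining library, gamergate GFP replicate 9, had 38 members above. All 60 lay above their own median in 8 libraries. In bulk samples such as these, more cells of a type and more RNA per cell cannot be told apart.

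**Figure D3:**
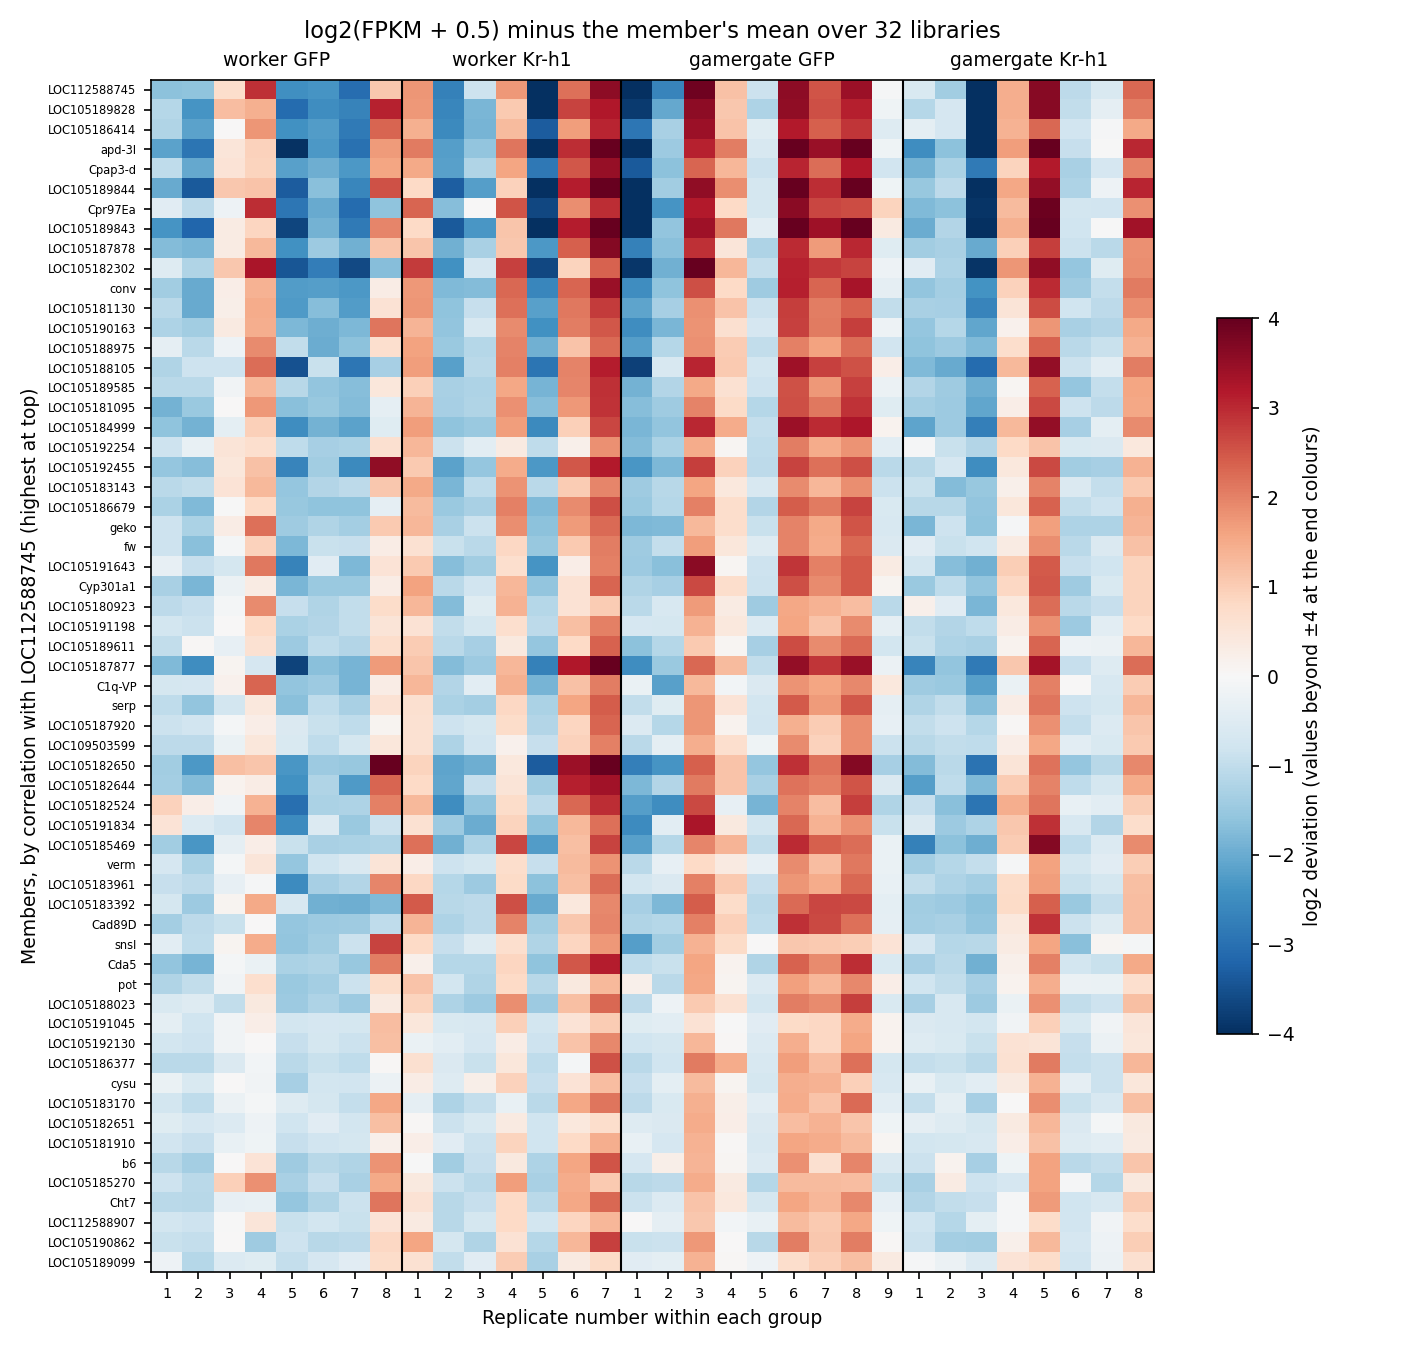
Each member's log2(FPKM + 0.5) minus its mean over the 32 libraries, with members in order of correlation (LOC112588745 at the top) and libraries in label order within the 4 groups. Whole columns are red or blue from top to bottom, in each of the 4 groups.

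The highest brain was not the same for every member. Worker Kr-h1 replicate 7 held the highest value of 18 members, gamergate GFP replicate 8 of 14, and gamergate Kr-h1 replicate 5 and gamergate GFP replicate 3 of 8 each. Members also differed in how steeply they followed LOC112588745. The fitted slope, in log2 units per log2 unit of LOC112588745, ran from 0.225 to 1.08 with a median of 0.512, and the pseudocount of 0.5 flattens it for low members. Only 5 members exceeded 1000 FPKM in any library, 42 stayed below 50 FPKM in every library and 15 below 10 FPKM. In 47 members at least 1 library was below 1 FPKM, and 11 members were listed at 0 in at least 1 library.

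Structural cuticle proteins stood near the head of the list. Cpap3-d (LOC105191836), a cuticular protein analogous to peritrophins, ranked 5 with r = 0.961 and ran from 0.0283 to 60.2 FPKM. Its medians were 1.56 FPKM in worker controls, 15.1 in workers given Kr-h1 siRNA, 13.3 in gamergate controls and 2.36 in gamergates given Kr-h1 siRNA. Cpr97Ea (LOC105188032), named after a fly protein with the Rebers-Riddiford motif, ranked 7 with r = 0.955 and ran from 0.103 to 248.6 FPKM. Its medians in the same order were 6.19, 60.3, 29.97 and 9.44 FPKM, and all 4 ranges overlapped. LOC105189828, with no symbol, ranked 2 with r = 0.970 and ran from 11.8 to 3420 FPKM, the only other member above 1000 FPKM.

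Enzymes that modify chitin followed with lower spread. The chitin deacetylases serp (rank 32, r = 0.894) and verm (rank 40, r = 0.869), which in the fly shape the chitin of tracheal tubes, were measured at 1 FPKM or more in every library. For serp, values ran from 2.34 to 50.7 FPKM, a 21.7-fold range, and verm ran from 8.45 to 113.1 FPKM, a 13.4-fold range. Both were highest in gamergate GFP replicate 8. Cda5, a further chitin deacetylase, ranked 45 and ran from 0.264 to 25.5 FPKM. The chitinase gene Cht7 ranked 57 and ran from 1.15 to 23.2 FPKM. serp, verm and Cht7 stayed above 1 FPKM in every library, while the lowest values of Cpap3-d and Cpr97Ea were below 1 FPKM.

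Further genes linked to cuticle or chitin in the fly, and a cadherin gene, were members too. In the fly, conv (convoluted) is needed for the chitin of tracheal tubes. It ranked 11 with r = 0.950 and ran from 0.0333 to 34.8 FPKM. The zona pellucida gene pot, which in the fly attaches the wing epithelium to the cuticle, ranked 46 and ran from 0.325 to 8.22 FPKM. snsl, a cuticle gene of the fly trachea, ranked 44 and reached 14.5 FPKM. Cyp301a1, a cytochrome P450 needed in the fly for the adult cuticle, ranked 26 and reached 10.6 FPKM. Cad89D, a cadherin, ranked 43 and reached 13.2 FPKM.

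Other members with symbols have no cuticle name. geko, known in the fly from odour responses, ranked 23 with up to 14.3 FPKM. fw, the fly's furrowed gene for a membrane protein with a lectin domain, ranked 24 with up to 10.2 FPKM. C1q-VP, whose name marks it as a C1q-like venom protein, ranked 31 with up to 16.5 FPKM. cysu ranked 51 with up to 3.37 FPKM and b6 ranked 55 with up to 18.4 FPKM. The other 43 members have identifiers only. Of these, LOC105186414 (rank 3, r = 0.969), LOC105187878 (rank 9, r = 0.953), LOC105182302 (rank 10, r = 0.950) and LOC105181130 (rank 12, r = 0.950) were in the top 12. In all, 28 members had r of at least 0.9. All 60 members are annotated as protein coding, against 94.2% of the genes tested.

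The edge of the list was gradual. The last 3 genes inside were LOC112588907 (r = 0.822), LOC105190862 (r = 0.816) and LOC105189099 (r = 0.815). Just outside lay LOC105192323 (r = 0.814), LOC105183718 (r = 0.810) and LOC105191649 (r = 0.808). In all, 64 genes had r of at least 0.8, and the median r over all genes was -0.0006. At the other end of the ranking the correlations were weaker. Naa80 had r = -0.613, LOC105180524 -0.563, Not11 -0.562, TTLL5 -0.558 and LOC105181441 -0.556, and 30 genes lay below -0.5.

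Some members are neighbours in the genome. In the gene order of the RefSeq assembly Hsal_v8.6, 17 members formed 8 runs of direct neighbours, against 2 genes in 1 run among ranks 61 to 120. The runs were LOC112588745 with Cad89D, LOC105189843 with LOC105189844, LOC105189611 with apd-3l, LOC105188023 with Cpr97Ea, LOC105183170 with geko, serp with verm, LOC105182650 with LOC105182651, and LOC105187878 with LOC105187877 and LOC105187920. The neighbours LOC105189843 and LOC105189844 had the highest r of any pair, 0.993. Their sequences were not compared here, and if they are near-identical copies, the authors' counting could have divided shared reads between them.

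Whether the level of these genes differed with treatment or caste was asked over samples, in a limma fit of all 9433 genes with groups and batch. In workers, 0 of 60 members were called for Kr-h1 against GFP siRNA at an adjusted p under 0.05, where the background was 0% of all genes (0 of 9433 by limma, 1618 at an unadjusted p under 0.05). The log2 difference of LOC112588745 was 1.01 ± 1.27 (SE), with a 95% interval from -1.59 to 3.61 (limma adjusted p = 0.688). All 60 members lay above 0, with a median log2 difference of 0.80, and 1 had an unadjusted p under 0.05. The smallest p values belonged to Cad89D (1.48, limma adjusted p = 0.265) and cysu (0.76, adjusted p = 0.295). Within rounds, LOC112588745 had 0.41 in round 2 and 1.90 in round 3. Since the members were chosen for varying together, their common sign counts as 1 observation and not as 60.

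In gamergates, 0 of 60 members were called for Kr-h1 against GFP siRNA, where 0.721% of all genes were. LOC112588745 had a log2 difference of -0.68 ± 1.20 (SE), with a 95% interval from -3.13 to 1.76 (limma adjusted p = 0.732). Within rounds it was -0.73 in round 2 and -0.64 in round 3. All 60 members lay below 0 with a median of -0.71, and 0 had an unadjusted p under 0.05, against 26.4% of all genes. LOC112588907 (-0.65, limma adjusted p = 0.214) and LOC105181910 (-0.59, adjusted p = 0.267) had the smallest p. With the replicate number as a block in gamergates alone, 0 members were called, 17 genes were called in place of 179 without the block, and LOC112588745 had -0.91. Whether the knockdown effect differed between castes was tested itself, and 0 of 60 members were called where 16.5% of all genes were. The effect in gamergates minus that in workers was -1.69 ± 1.75 (SE) for LOC112588745 on the log2 scale, with a 95% interval from -5.26 to 1.87 (limma adjusted p = 0.501). The members' median was -1.53, and 13 of 60 had an unadjusted p under 0.05, a smaller share than the 35.3% of all genes. The smallest p values were those of LOC105181910 (-1.31, adjusted p = 0.0702) and Cad89D (-2.31, adjusted p = 0.0757). Leaving out worker Kr-h1 replicate 5 called 3 members in this test, where 17.5% of all genes were called. Leaving out gamergate GFP replicate 5 or gamergate Kr-h1 replicate 5 called 2, where 17.1% and 14.4% of all genes were, so these member counts lay below the share over all genes.

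Between castes in GFP controls, 0 of 60 members were called, where 1.33% of all genes were. LOC112588745 was 2.73 ± 1.54 (SE) log2 units higher in gamergates, with a 95% interval from -0.41 to 5.87 (limma adjusted p = 0.292). In round 3 alone, where both castes were on the same run, it was 3.16. This value is not a separate check. Only round 3 holds both castes in the same batch level, so the caste contrasts of the fit rest on that round. It held 3 worker and 5 gamergate controls. The members' median was 1.33 and all 60 lay above 0. Of the 60, 21 had an unadjusted p under 0.05, a larger share than the 21.7% of all genes. Members chosen for varying together do not count as separate observations here either. Cad89D had 2.50 (limma adjusted p = 0.0877) and LOC105183392 had 2.80 (adjusted p = 0.0967). Without the batch term 8 members were called, where 4436 of the 9433 genes were, and LOC112588745 had 1.49 (limma adjusted p = 0.328). After Kr-h1 siRNA, 0 of 60 members were called for gamergates against workers, where 0.17% of all genes were. LOC112588745 had 1.04 ± 1.59 (SE), with a 95% interval from -2.20 to 4.29 (limma adjusted p = 0.778), and the members' median was -0.13 with 26 above and 34 below 0. LOC105192130 (-0.50, limma adjusted p = 0.636) and Cht7 (-0.65, adjusted p = 0.644) had the smallest p. Without worker Kr-h1 replicate 5, the value of LOC112588745 became -0.31.

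The worker and gamergate comparisons and the caste comparisons share libraries, so their values are not independent. For 0 of 60 members did the ranges of the groups compared fail to overlap, in each of the 4 pairs of groups. Over all genes tested, the ranges did not overlap for 0.0848% between control and treated workers and 0.106% between control and treated gamergates. Between castes the share was 3.27% in controls and 0.392% after Kr-h1 siRNA. Group differences had wider errors for the members than for other genes, as the members varied more from brain to brain within groups. The median SE of the members was 0.696 log2 units in workers and 0.654 in gamergates, against 0.125 and 0.117 over all genes tested. The intervals above therefore include changes of several-fold, and a missed threshold does not show equal levels. Without worker GFP replicates 4 and 5, 0 of 60 members were again called in all 5 comparisons, and LOC112588745 had log2 differences of 1.34 in workers, -0.68 in gamergates, 2.90 for caste in controls, 0.88 for caste after Kr-h1 siRNA and -2.02 for the difference between castes. Round 2 gamergates were alone on their run, so in round 2 caste and run cannot be told apart.

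Although the lead genes moved together, some of their ratios to each other differed between rounds. These ratios were chosen after their values were seen, and 36 exact two-sided permutation tests on log2 ratios were adjusted together. Between rounds, LOC112588745 over apd-3l passed in neither caste (exact permutation, adjusted p = 0.160 in workers and 0.236 in gamergates). In workers, whose rounds were on the same run, with brains of both siRNAs pooled, LOC112588745 over LOC105189843 was 1.17 to 1.97 in round 3 (n = 6) and 2.91 to 9.46 in round 2 (n = 9). The groups did not overlap, with a mean log2 difference of -1.62 (exact p = 0.0004, adjusted p = 0.0144). LOC112588745 over LOC105189844 was 1.37 to 3.57 in round 3 and 2.90 to 13.1 in round 2, a log2 difference of -1.59 (exact permutation p = 0.0008, adjusted p = 0.0144). For apd-3l over LOC105189843 the ranges overlapped, at 0.949 to 1.32 in round 3 and 1.06 to 3.17 in round 2, and the difference was -0.75 (exact permutation p = 0.0032, adjusted p = 0.0288). It was -0.35 in controls and -1.26 in workers given Kr-h1 siRNA. For LOC112588745 over LOC105189843 the difference was -1.71 in controls and -1.51 after Kr-h1 siRNA, and for LOC112588745 over LOC105189844 it was -1.75 and -1.44. In gamergates, whose rounds also differ in run, LOC105189843 over LOC105189844 was higher in round 3 by 0.50 (exact permutation p = 0.00156, adjusted p = 0.0188), with overlapping ranges and a difference of 0.31 in controls and 0.69 after Kr-h1 siRNA. In the fit across all genes, 0 of 60 members differed in level between rounds in workers, where 6.4% of all genes did.

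With treatment, no ratio passed the adjustment. In round 2 workers, apd-3l over LOC105189843 was 2.18 to 3.17 after Kr-h1 siRNA (n = 4) and 1.06 to 1.53 in controls (n = 5), a log2 difference of 0.97. The ranges did not overlap, and the exact permutation p of 0.0159 is the smallest that 5 against 4 brains can give, adjusted to 0.0952. apd-3l over LOC105189844 was likewise apart in round 2 workers, at 3.41 to 5.38 against 1.41 to 3.00, with the same adjusted p. In round 3 workers apd-3l over LOC105189843 was 0.949 to 1.32 after Kr-h1 siRNA and 0.975 to 1.17 in controls (n = 3 each, exact permutation p = 0.8). The ranges overlapped in round 3, and the difference between rounds was not tested.

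**Figure D4:**
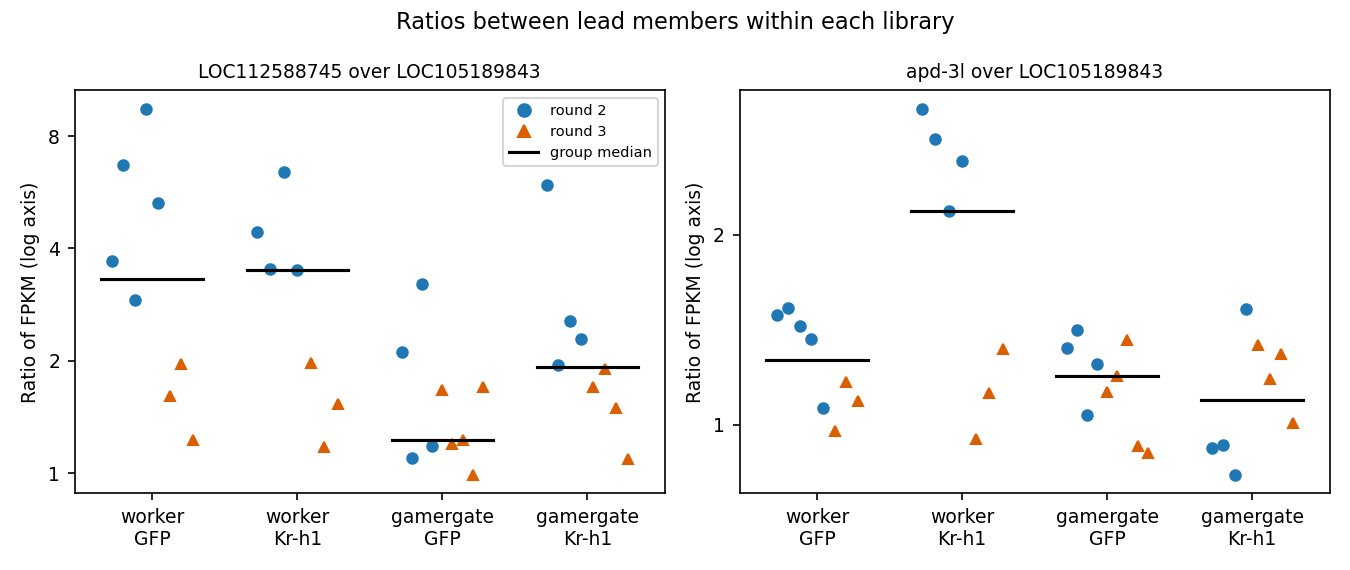
FPKM ratios on log axes of LOC112588745 over LOC105189843 (left) and apd-3l over LOC105189843 (right) in each library by group, with circles for round 2, triangles for round 3 and group medians as lines. In workers, the left ratio is 2.91 to 9.46 in round 2 and 1.17 to 1.97 in round 3.

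Other cuticle genes were divided. A list of 36 genes with cuticle or chitin symbols, drawn up after the members were known, had 25 genes that passed the filter, of which 11 were members and 14 had r above 0.5. The 3 outside the members were qsm (r = 0.759), a zona pellucida gene, Cpap3-b (r = 0.716) and the chitin deacetylase Cda4 (r = 0.704). The chitin synthase gene kkv had r = 0.278, and mmy, which makes the sugar that chitin is built from, had r = -0.200. The Rebers-Riddiford genes CPR1 (r = -0.104), CPR14 (r = 0.00787), CPR17 (r = -0.156) and CPR27 (r = -0.0366) did not follow LOC112588745. A shorter list for tracheae and cuticle had 5 genes measured. Of these, Cpr (r = -0.0805) matched by spelling alone and is not a cuticle gene in the fly. The others were CPR1 and kkv, with r as given above, and the members serp (r = 0.894) and verm (r = 0.869). Among all 25 genes, 2 were called in the fit across all genes, neither of them a member. CPR1 was lower in gamergate than in worker controls, at -3.01 ± 0.50 log2 units (SE, adjusted p = 0.00461 by limma). For kkv the knockdown effect in gamergates minus that in workers was -1.11 ± 0.31 (SE; limma adjusted p = 0.0239). In the other 3 comparisons 0 of the 25 were called.

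Markers of other tissues that a dissected brain could carry were set beside the members. Of 9 measured retina markers, 0 were members and 6 had r above 0.5 with LOC112588745. These were the opsins Uvop (r = 0.780) and Lop2 (r = 0.733), ninaC (r = 0.733), the arrestins Arr2 (r = 0.706) and Arr1 (r = 0.704), and chp (r = 0.658). The other 3 were Lop1 (r = -0.178), Rh5 (r = -0.138) and trp (r = 0.232). Of the 9, the opsin genes Lop1 and Rh5 were called lower in gamergate controls than in worker controls, with log2 differences of -3.18 and -2.11 (limma adjusted p = 0.00461 and 0.00922), and Rh5 was also called for the difference between castes (1.30, limma adjusted p = 0.0492). The 6 that followed LOC112588745 were called in 0 of the 5 comparisons. Summed over the list, retina markers ran from 73.1 to 940.3 FPKM in worker controls and 47.2 to 723.7 FPKM in workers given Kr-h1 siRNA. They ran from 63.3 to 813.1 FPKM in gamergate controls and 57.0 to 643.0 FPKM in gamergates given Kr-h1 siRNA. None of the 9 was at 0 in any library, and their part in the members' variation was not tested.

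Muscle markers, 8 measured, had r from -0.119 to 0.256 with a summed level of 51.9 to 444.3 FPKM. Fat body markers (5 measured) had r from -0.228 to 0.310 and haemocyte markers (5) from -0.290 to 0.108. Glial markers (10) ran from -0.297 to 0.356 and neuronal markers (11) from -0.450 to 0.146. Spelling alone brought vg into the fat body list and GatA and GatB into the glial list. None of them sets an end of these ranges. Cytosolic ribosomal protein genes (60) ran from -0.0848 to 0.308 and oxidative phosphorylation genes (51) from -0.324 to 0.329. Each of these 7 lists had 0 members and 0 genes with r above 0.5.

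**Figure D5:**
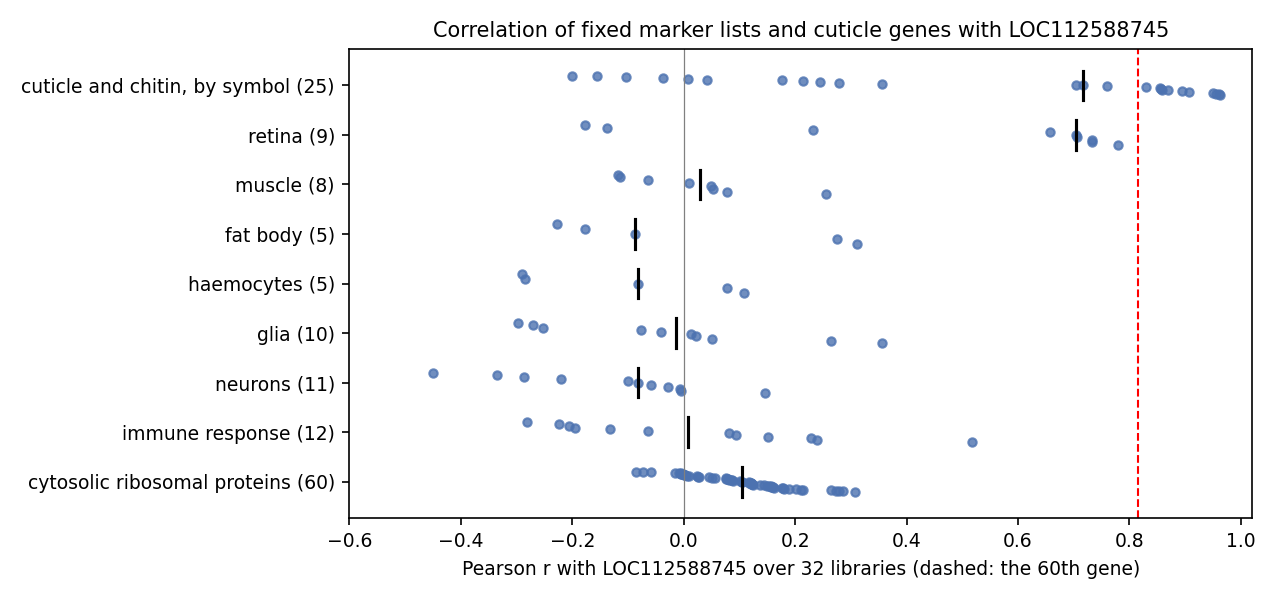
Pearson r with LOC112588745 over 32 libraries for the measured genes of 9 lists, with 1 point per gene, a black line at each list's median and a dashed line at the r of the last member. Retina genes gather near 0.7 apart from 3, the cuticle genes divide between high and near 0, and the other lists lie around 0.

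Few genes of the response lists followed LOC112588745. The lists were matched by the spelling of symbols, so some counts take in unrelated genes. These include cype, Cypl and Cyp40 (detoxification), hop (heat shock), sra (early genes) and vg (haemolymph carriers). Pbp45, Pbp49 and Pbp95 (odorant-binding) are further cases. None of these genes sets an end of a range below. The immune list (12 measured) took in Dl (r = -0.195) and Dll (r = -0.281) by spelling alone. Its other genes ran from -0.225 (cact) to 0.518, with the defensin Def2 highest. Among 5 circadian genes r ran from -0.170 to 0.552, with cyc highest. The 15 detoxification genes ran from -0.423 to 0.907, the highest being the member Cyp301a1. Genes of antiviral RNA interference (5) ran from -0.544 to -0.140, so all 5 lay below 0. Heat shock genes (6) ran from -0.211 to 0.124, activity-regulated early genes (7) from -0.275 to 0.182 and neuropeptides (11) from -0.456 to 0.279. Haemolymph carriers (6) ran from -0.228 to 0.310, and odorant-binding and chemosensory proteins (10) from -0.195 to 0.392. The list of proteases and serpins matched only Spn (r = -0.249) and spn-F (r = 0.263), by spelling alone. It therefore held no protease or serpin. The corpora allata list (2) had -0.374 and 0.0343. The gut and gland list matched only mal (r = 0.160), by spelling alone, so it held no gut or gland marker.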

How the data were processed

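Polyadenylated RNA was sequenced strand-specifically (dUTP) from single central brains, per the labels' protocols. The authors deposited FPKM for 14001 genes. Per the submitters' processing notes, the tools included STAR, featureCounts, DESeq2 and bcl2fastq, without versions or roles. The build, the annotation and the depth factor are not given in these sources, and coordinates are left out. The protocol writes the control as GRP and the titles as GFP. Symbols and gene order came from RefSeq Hsal_v8.6, which matched 13989 identifiers.

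The 9433 genes tested had log2(FPKM + 0.5) as response in limma 3.58.1 (R 4.3.3), being those with at least 1 FPKM in at least 7 libraries. The model had 4 groups and a batch term of 3 levels (round and run), with a variance trend and Benjamini-Hochberg adjusted p under 0.05. Fold changes on this scale understate those of low genes. The fit was tested on simulated data. Ratios used exact permutation tests. Same-numbered gamergate libraries deviated together from their group means, with correlations of 0.225 to 0.719, but each pair shared a round, which the batch term holds. Reads were recovered from the steps of the FPKM values, whole within 0.02 reads, for 12240 of 12692 detected genes (96.4%), including all 60 members. Nothing beyond the 1 brain per library says how brains were spread over colonies, and p-values measure only the spread between these brains.

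The members and the gene lists were chosen with earlier results of these data known, and the list of cuticle and chitin symbols after the members were seen. Genes are named by rule: the 4 lead genes, Kr-h1, the 12 highest correlations, every member with a symbol, the 3 genes either side of the edge, the 2 smallest p values per comparison, and the 5 most negative correlations. Of other lists, genes are named where r passed 0.5, and mmy, kkv, the CPR genes and the other retina markers were named after their values were seen. So were cact and the genes that a list took in by spelling alone, since lists were matched by symbol without regard to case. Sequences were not used here. Alternatives covered pseudocount, filter, scaling, correlation measure, batch term, subsets of libraries, a replicate block and each library left out.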

Additional observations from a re-analysis of the deposited data

Results flagged for a closer look

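Of 240 tests of a member within a group, 7 had a highest library separated from the rest by more than Dixon's critical value, on the log2 scale, and chance flags about 1 in 20 such tests. All 7 were in worker controls. LOC105188105 was at 54.3 FPKM and Cad89D at 1.31 FPKM in worker GFP replicate 4, each far above the other worker controls. In worker GFP replicate 8, Cda5 was at 11.7 FPKM and Cht7 at 20.7 FPKM, again far above the others. The same library stood apart with LOC105192130 at 1.7 FPKM, LOC105183170 at 3.14 FPKM and LOC105182651 at 1.9 FPKM.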

How the results depend on the processing

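Of 184 values under other settings, 181 were counted as unchanged. For log2 values of LOC112588745 this meant the same direction and the same side of the threshold. For members called it meant the same count. The bound for shared members was loose, so that 44 of 60 still counted as unchanged. For apd-3l, LOC105189843 and LOC105189844 any rank within the first 60 did. For caste in GFP controls, 8 members were called with no batch term, where 4436 of 9433 genes were called. With FPKM divided by the library's FPKM sum, 1 of 60 was called. The share over all genes under that setting is not given here, so this count is not read as a result. For caste after Kr-h1 siRNA, the log2 value of LOC112588745 was -0.32 with no batch term (limma adjusted p = 0.912). The cause was not tested. Of the main 60 genes, 44 were shared when 16 libraries at 1 FPKM were required, since 16 members did not pass that filter. With every other setting 50 to 60 were shared, and apd-3l, LOC105189843 and LOC105189844 ranked between 2 and 19.

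With each library left out, 506 of 510 values were unchanged by the same rules, and for ratios by the rule given with them below. Shared members were 56 to 60, and ranks were 3 to 7 for apd-3l, 6 to 11 for LOC105189843 and 6 to 9 for LOC105189844. Members called stayed at 0, except 0 to 3 for the difference between castes in the knockdown effect, where 4.23% to 23.3% of all genes were called. For LOC112588745 the log2 value was 0.39 to 1.79 for knockdown in workers, -1.30 to -0.03 in gamergates, 2.11 to 3.37 for caste in controls, -0.31 to 2.13 for caste after Kr-h1 siRNA (-0.31 without worker Kr-h1 replicate 5, limma adjusted p = 0.937) and -2.47 to -1.04 for the difference between castes. The 4 ratios with an adjusted p under 0.05 kept their direction and an unadjusted exact permutation p under 0.05. The adjustment was not repeated with libraries left out.

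With a replicate block, 0 members were called in all 5 comparisons, and the log2 values of LOC112588745 were 1.22 for knockdown in workers, -0.91 for knockdown in gamergates, 3.19 for caste in controls, 1.06 for caste after Kr-h1 siRNA and -2.12 for the difference between castes. Calls over all genes were 0, 113, 53, 3 and 698 in the same order. Deviations from group means correlated from -0.118 to 0.202 between same-numbered workers, 3 of 7 above 0.1, so the numbers do not pair the workers. Between same-numbered gamergates they correlated from 0.225 to 0.719, all 8 above 0.1, but all 8 pairs share a round. With group and batch removed these ran from -0.475 to 0.326, with 3 of 8 above 0.1. With gamergate libraries alone, chosen after seeing the data, LOC112588745 had -0.68 without the block and -0.91 with it. Caste comparisons in round 2 alone were not run, since caste and run cannot be told apart there. Depth limits the low members, 11 of which were listed at 0 in at least 1 library.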
